A study of Mus musculus with 16 samples.

Results

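Of the 53465 genes counted in 16 MC38 tumors, 37 chemokine and chemokine receptor genes were taken by symbol: 21 ligands (myeloid, stromal and epithelial ones, with Ccl1 and Xcl1, which lymphocytes make), 11 signaling receptors and 5 atypical receptors. MC38 is a single mouse colon adenocarcinoma line. Female C57BL/6 mice of 6 to 8 weeks of age each carried 1 tumor under the skin of the right flank, grown from injected cells, and entered the study once it measured 150 to 250 mm3 on day 16. The 8 mice of the IgG control group (replicates 1 to 8) received a control antibody and the other 8 received aPD-1, an antibody against the T cell checkpoint receptor PD-1, both at 200 µg on days 16 and 20, and all tumors were taken on day 21. The study designated 6 of the aPD-1 tumors as non-responders (replicates 9 to 14) and 2 as responders (replicates 15 and 16) by CD8 staining of the other piece of the same tumor, so the 2 responders were chosen for their T cell content. Each library was poly(A) RNA from 2 frozen sections of 1 tumor, so all cells of the tissue are mixed, and more cells of a type and more RNA per cell cannot be told apart.

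Chemokines are small secreted proteins that direct the movement of white blood cells by engaging G protein-coupled receptors. The CCL2 and CCR2 pair brings monocytes from the blood into tumors, where many become macrophages. CXCL12 is made by fibroblasts and vessel cells and holds CXCR4-bearing cells in place, while fractalkine, the product of Cx3cl1, is displayed on cell surfaces and binds CX3CR1 on macrophages and some lymphocytes. The atypical receptors bind chemokines without the usual G protein signal, and take them up or carry them across cells.

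Depth ran from 26603497 to 39948901 counts in a tumor (median 34105808). Mitochondrial transcripts took 7.60% of counts in IgG control replicate 1, 6.00% in non-responder replicate 9 and 5.73% in non-responder replicate 14. The other 13 tumors had 2.52 to 3.25%. Called genes whose result rests on those 3 libraries are also given without them. Levels are given as CPM, counts per 1000000 counts of a library size scaled by the TMM method. A gene was called where edgeR's quasi-likelihood test gave it an adjusted p below 0.05, with adjustment over all genes tested, and the log2 fold change was above 1 or below -1. Of the 37 genes, 34 passed edgeR's filter on low counts. Ccl20, Cxcl17 and Cxcr1 did not pass. Ccl24, Ccr3, Ccr4, Ccr6 and Ackr4 held at most 23 counts in any IgG control or non-responder tumor and entered the test through the 2 responders. They had at least 10 counts in fewer than 8 tumors, so their calls carry no weight.

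Responders differed from non-responders at 15 of the 34 genes tested. Expression was higher for 14 (Ccl8, Ccl9, Ccl11, Ccl24, Ccl27a, Cxcl12, Cx3cl1, Ccr4, Ccr6, Ccr9, Cxcr6, Ackr1, Ackr2 and Ackr4) and lower for 1 (Cx3cr1). Over all 18251 genes tested, 12.5% were called higher in responders and 0.663% lower. Among genes with at least 10 counts in at least 8 tumors, which leaves out the 5 genes that entered through the responders, 11 of 29 were called higher and 1 lower, against 9.53% and 0.641% of the 15901 genes tested there. The monocyte attractants Ccl2, Ccl7 and Ccl12 and the receptors Ccr1 and Ccr2 were not called, and neither were Ccl3, Ccl4, Cxcl16, Xcl1 or Ackr3. In 17 of the 34 genes the 2 responders had the highest values of the 8 aPD-1 tumors and in 1 the lowest, against 21.5% and 13.2% of all genes tested, and the same 17 and 1 held against all 14 other tumors, with 16.7% and 7.86% of all genes. These 17 include the 5 genes that entered through the responders. Among genes with at least 10 counts in at least 8 tumors the responders were apart from all 14 others at 12 of 29 on the high side and 1 on the low side, against 13.9% and 8.9% of the genes tested there. The heat map of the 37 genes by tumor shows the 2 responder columns set apart and little change between the other groups.

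**Figure D1:**
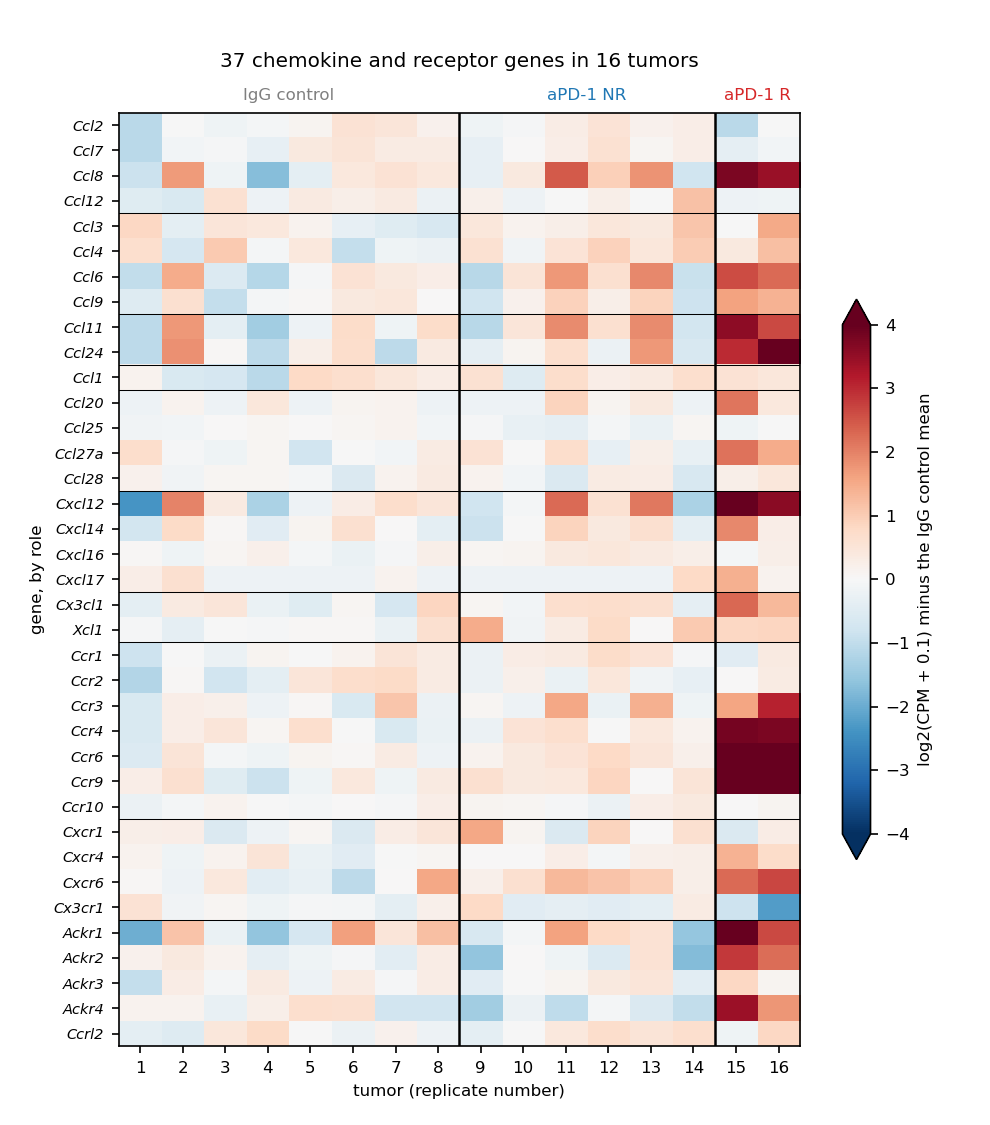
Heat map of 37 chemokine and receptor genes (rows, by role) in 16 tumors (columns, by replicate number), colored by log2(CPM + 0.1) minus the mean of the 8 IgG control tumors. Ccr4, Ccr6, Ccr9, Ccl8 and Cxcl12 are deep red in replicates 15 and 16, Cx3cr1 is blue there, and Ccl25 and Ccr10 stay pale in all 16 columns.

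Signs of other cells moved with the responders. Over 8 T cell markers, summed levels were 239 and 252 CPM in the responders against at most 35.0 CPM elsewhere, and all 8 were called higher than in non-responders. All 6 B cell markers were called, at 304 and 1113 CPM against at most 7.41 CPM. The 6 markers of lymph node stroma and of high endothelial venules (HEV) summed to 130.4 and 423 CPM against at most 4.58 CPM. Of these, Ccl21a and Cxcl13 had at least 10 counts in at least 8 tumors, and both were called. The other 4, which include Chst4 with 101 and 33 counts in the responders and at most 5 elsewhere, did not, and nothing is read from their calls. The 6 adipocyte markers, all called, summed to 230.4 and 1241 CPM against at most 83.8 CPM. Of 6 blood endothelial markers 3 were called (Pecam1, Kdr and Tek), with sums of 203 and 376 CPM against at most 181 CPM. The 10 macrophage and monocyte markers summed to 3012 and 3200.4 CPM in responders, 1632 to 3006 CPM in non-responders and 1482 to 2487 CPM in IgG controls, and Mrc1 alone was called. Among markers of classical monocytes, which circulate in the blood, Ly6c2 (log2 fold change 2.48), Plac8 (1.2) and Chil3 (3.57) were called higher, and Itgam (0.061) and Fn1 (-0.076) were not called. Ly6c2 was at 32.3 and 66.6 CPM in the responders and at most 13.6 CPM elsewhere, and Chil3 was high in replicate 16 alone, at 122 CPM against 3.81 CPM in replicate 15. Of the 8 fibroblast markers Lum was called, and their sums overlapped between the groups, at 7003 to 7775 CPM in responders and 5812 to 7969 CPM in non-responders. The labelled tissue is a colon carcinoma, yet the 8 epithelial markers summed to only 4.67 to 12.5 CPM in the 14 IgG control and non-responder tumors, with Cdx2 at 0 in every non-responder and responder. In responders they summed to 50.7 and 117 CPM, with Krt8, Krt18, Krt19 and Epcam called. Called markers numbered 3 of 5 for plasma cells (539 and 664 CPM in responders, at most 205 CPM elsewhere), 5 of 7 for dendritic cells (84.2 and 109.6 CPM, at most 91.3 CPM elsewhere), 4 of 6 for NK cells (15.2 and 42.2 CPM, at most 12.99 CPM elsewhere), 1 of 6 for mast cells (Kit, with sums of 37.9 and 105 CPM, at most 53.2 CPM elsewhere) and 2 of 6 tested for neutrophils (Retnlg and Cxcr2, with sums of 15.9 and 36.2 CPM, at most 13.6 CPM elsewhere), with the defining marker Ly6g at 0 in all tumors. Retnlg, Cxcr2 and 1 of the 3 called plasma cell markers, Tnfrsf17, had at least 10 counts in fewer than 8 tumors, so their calls carry no weight. No marker of skeletal muscle (6 tested) or skin (4 tested) was called. The part of these cell types in the chemokine differences was not tested.

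The CCR2-binding chemokines split. Ccl2, the main monocyte attractant, was the most highly expressed of the 37 genes in IgG controls, at 234 ± 69.6 RPKM (CPM per kilobase of exon, SD, n = 8). Its lowest value of 104.9 RPKM was above the highest of Ccl7, 103.0 RPKM, the next gene at 75.5 ± 22.8 RPKM. Cxcl16 (33.7 ± 3.92 RPKM), Ccl8 (29.9 ± 21.98), Ccl12 (28.9 ± 8.77) and Ccl6 (25.3 ± 16.5) followed in RPKM with ranges that overlapped. The most highly expressed receptors were Cx3cr1 (18.1 ± 4.05 RPKM), Ccr1 (17.0 ± 4.36), Cxcr4 (13.7 ± 2.87) and Ccr2 (10.5 ± 4.48), again with overlapping ranges, and Ccr3, Ccr4, Ccr6, Ccr9, Cxcr1, Ackr4, Ccl20 and Cxcl17 were below 0.05 RPKM. Its lowest, median and highest CPM were 119, 261 and 376 in IgG controls and 223, 294 and 372 in non-responders, and the responders had 119.6 and 254 CPM. Replicate 15 was near the bottom of all 16 tumors and replicate 16 inside both other groups. Its log2 fold change of -0.64 from non-responders to responders (95% interval -1.36 to 0.087) was not called. Without responder replicate 16 it was -1.33 and called lower, at an adjusted p that rounds to 0.05, and without responder replicate 15 it was -0.26. Ccl7 and Ccl12, which attract monocytes as well, had log2 fold changes of -0.41 (95% interval -1.07 to 0.25) and -0.50 (-1.25 to 0.26).

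Ccl8, a chemokine of macrophages that attracts monocytes and, through CCR8, some T cells, went the other way. Its levels in IgG controls were 3.66, 13.7 and 39.9 CPM (lowest, median and highest) and in non-responders 7.08, 20.0 and 67.0 CPM, while responders had 166 and 134 CPM. Both responders were above every other tumor. Against non-responders this was a log2 fold change of 2.43 (SE 0.71, adjusted p = 0.0236 from edgeR), or 5.39-fold. Per kilobase, Ccl8 rose above Ccl2 in the responders, with 262 to 326 RPKM against 105 to 223 RPKM, whereas in IgG controls Ccl8 ranged from 7.16 to 78.1 RPKM and Ccl2 from 105 to 331 RPKM. Without replicates 1, 9 and 14 the log2 fold change was 1.95 (adjusted p = 0.0617), and without responder replicate 15 or 16 the adjusted p was 0.222 or 0.0654.

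Ccl2, Ccl7, Ccl11, Ccl12, Ccl8 and Ccl1 lie in this order within chr11:82035571-82305690 (GRCm38). Ccl12 and Ccl8 are next to each other among these genes, on the same strand, and of the pair Ccl8 was called. Their upstream sequences are shown because of that contrast, with matches to any of 5 motifs in capitals. The motifs searched on both strands were AP-1 (TGANTCA), GAS, the site of STAT factors (TTCNNNGAA), ISRE, the interferon response element (GAAA, any 2 bases, GAAA), the TATA box (TATAAA) and, by its name, kappaB. The sequences, from RefSeq (GRCm38.p6), are the 250 bases before a RefSeq start of the gene.

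Ccl12, chr11:82101595-82101844, plus strand: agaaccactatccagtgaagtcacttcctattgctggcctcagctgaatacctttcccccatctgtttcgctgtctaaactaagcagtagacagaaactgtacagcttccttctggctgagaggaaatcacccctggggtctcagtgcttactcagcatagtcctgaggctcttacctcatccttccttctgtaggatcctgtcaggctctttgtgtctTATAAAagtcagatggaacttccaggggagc
Ccl8, chr11:82114935-82115184, plus strand: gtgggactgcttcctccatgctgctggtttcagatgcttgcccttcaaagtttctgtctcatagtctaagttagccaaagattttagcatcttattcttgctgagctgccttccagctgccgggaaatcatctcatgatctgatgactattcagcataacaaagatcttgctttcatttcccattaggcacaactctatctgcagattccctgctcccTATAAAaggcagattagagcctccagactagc

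Each window held 1 match, a TATA box, at positions -31 to -26 in Ccl12 and -32 to -27 in Ccl8, counted back from the start. A TATA box match occurred in 12.4% of 32851 windows of this length, and the search found no difference between the neighbors. RefSeq windows were matched for 29 of the 37 genes, and no windows were matched for Ccl2, Ccl4, Ccl7, Ccl11, Ccl24, Ccr10, Cxcl16 and Cxcl17.

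Of Ccl3, Ccl4, Ccl6 and Ccl9, chemokines made largely by macrophages, Ccl9 was called. It had 17.6, 35.2 and 53.9 CPM in IgG controls (lowest, median and highest), 19.2, 39.6 and 65.0 CPM in non-responders, and 106 and 90.3 CPM in responders. The groups did not overlap, and the log2 fold change was 1.25 (SE 0.41, adjusted p = 0.0428). It was called in 10 of 23 fits. Leaving out any 1 of IgG control replicates 1, 4, 5 and 8, non-responder replicates 9, 10, 12 and 14 or the responders ended the call, and without replicates 1, 9 and 14 together it was 0.86 (adjusted p = 0.0763). Ccl6, its neighbor and a macrophage chemokine of rodents, was at 17.8, 57.6 and 147 CPM in non-responders and at 238 and 186 CPM in responders. A log2 fold change of 1.57 (SE 0.68, adjusted p = 0.125) did not pass, although both responders were above all other tumors. Against IgG controls, with 17.6, 41.7 and 109 CPM, Ccl6 was called at 2.22 (SE 0.63, adjusted p = 0.0163), and the adjusted p was 0.206 or 0.0548 without responder replicate 15 or 16. Ccl3 and Ccl4, made by activated macrophages and T cells, were not called, with 95% intervals of the log2 fold change of -0.43 to 1.36 and -0.69 to 1.18. Ccl9, Ccl6, Ccl3 and Ccl4 lie in that order within chr11:83572919-83664683.

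The 250 bases upstream of Ccl9 held more matches than those of the other called chemokines with a window, and are shown for that reason.

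Ccl9, chr11:83578637-83578886, minus strand: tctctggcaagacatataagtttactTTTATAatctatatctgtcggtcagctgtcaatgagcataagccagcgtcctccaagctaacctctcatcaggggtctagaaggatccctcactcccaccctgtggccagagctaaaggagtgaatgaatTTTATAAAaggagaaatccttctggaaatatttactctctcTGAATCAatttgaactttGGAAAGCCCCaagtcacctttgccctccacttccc

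Capitals mark an AP-1 match at -53 to -47, TATA box letters at -224 to -219, -94 to -89 and -92 to -87, of which the last pair overlap on opposite strands, and a kappaB match at -35 to -26. An AP-1 match was found in 6.75% and a kappaB match in 7.25% of all windows.

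Both eotaxins, which attract eosinophils through CCR3, were higher in both responders than in any other tumor. Ccl11 was at 0.869, 2.13 and 8.31 CPM in IgG controls (lowest, median and highest), 1.07, 3.67 and 9.38 CPM in non-responders and 30.1 and 15.7 CPM in responders, and the groups did not overlap. It differed by 2.27 on the log2 scale (SE 0.73, adjusted p = 0.0375), and by 1.76 (adjusted p = 0.0729) without replicates 1, 9 and 14. Leaving out any 1 of non-responder replicates 9, 10, 12 and 14 or of the responders also ended the call, at adjusted p from 0.0564 to 0.434. Ccl24 was low outside the responders, with 0 to 23 counts in IgG controls and 1 to 23 in non-responders, against 52 and 160 counts in the responders, or 1.54 and 4.50 CPM. Its log2 fold change was 3.97 (SE 1.02, adjusted p = 0.0102), and 2.96 without responder replicate 16. With at least 10 counts in fewer than 8 tumors, Ccl24 has a call that carries no weight. The receptor Ccr3 had 12 and 42 counts in the responders and at most 12 in any other tumor. At a log2 fold change of 2.47 (adjusted p = 0.0732) it was not called against non-responders, and at 3.54 (SE 0.89, adjusted p = 0.00770) it passed in the IgG control comparison. The latter was 2.38 without responder replicate 16. The former was called without IgG control replicate 1 or non-responder replicate 11 or 13, at adjusted p of 0.0474, 0.0399 and 0.0476. As with Ccl24, the calls of Ccr3 carry no weight. The 6 eosinophil markers stood at 6.71 and 5.03 CPM in sum in responders and at most 3.33 CPM elsewhere, with Ear1 at 0 in all tumors. Prg2, with at most 2 counts outside the responders, was the 1 called of 3 tested, and its call carries no weight. Of the 2 markers with at least 10 counts in at least 8 tumors, 0 were called.

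Ccl1, the ligand of CCR8, did not differ beyond the spread, with 0.503 and 0.450 CPM in responders and 0.182 to 0.547 CPM in non-responders (95% interval of the log2 fold change -1.10 to 1.39). Of the epithelial and mucosal chemokines, Ccl27a, the skin chemokine that binds CCR10, was called. Its levels were low, at 0.143, 0.306 and 0.570 CPM in IgG controls, 0.228, 0.345 and 0.576 CPM in non-responders and 1.74 and 1.04 CPM in responders, with no overlap. Its log2 fold change of 1.88 (SE 0.43, adjusted p = 0.00439) was 1.39 (adjusted p = 0.223) without responder replicate 15. Ccl27a overlaps Il11ra1 on the opposite strand and has near-identical copies, and reads of the copies may be split between them. The library kit kept the strand of the RNA, but the strand setting of the counting is not given in the sources used here, so whether reads of opposite-strand partners were kept apart, here and for Cxcr6, Ccr9 and Ackr4, was not tested. Ccl25, the gut and thymus ligand of CCR9, varied little, at 11.1 to 15.7 CPM over all 16 tumors, with a log2 fold change of 0.049 (95% interval -0.23 to 0.33). Ccl28, also a ligand of CCR10, was at 0.43 (-0.31 to 1.16). Ccl20, the ligand of CCR6, had 0 to 4 counts in 14 tumors, 14 counts in responder replicate 15 and 2 in replicate 16, and was not tested.

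Cxcl12, the stromal chemokine that binds CXCR4 and ACKR3, gave the largest rise among the ligands with at least 10 counts in every tumor. IgG controls had 1.22, 8.37 and 26.6 CPM (lowest, median and highest), non-responders 2.68, 8.26 and 32.5 CPM, and responders 221 and 83.0 CPM. The responders were far above the others, and differed from each other. On the log2 scale the difference was 3.43 (SE 0.86, adjusted p = 0.00909), or 10.8-fold. It was 2.91 (adjusted p = 0.0187) without replicates 1, 9 and 14, and 2.49 (adjusted p = 0.245) without responder replicate 15. Cxcl14, an epithelial and fibroblast chemokine, was high in that tumor alone, with 45.4 CPM in replicate 15 and 14.3 CPM in replicate 16, against 6.59 to 22.1 CPM in non-responders. It was called against IgG controls (1.23, SE 0.42, adjusted p = 0.0441), not against non-responders (1.09, adjusted p = 0.104), and without replicate 15 the 2 log2 fold changes were 0.10 and -0.043. The call against IgG controls was also lost without any 1 of IgG control replicates 1, 3, 4, 5, 7 and 8 or non-responder replicates 10 and 12, and that against non-responders was made without responder replicate 16 (1.64, adjusted p = 0.0287).

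The receptors of CXCL12 moved less. Cxcr4, found on most white blood cells, was at 17.9, 25.0 and 34.9 CPM in IgG controls, 23.2, 26.4 and 29.4 CPM in non-responders and 63.7 and 40.4 CPM in responders, with no overlap. Its log2 fold change of 0.98 (SE 0.20, adjusted p = 0.00187) passed the p but not the fold threshold, which it passed when non-responder replicate 11 (1.02), non-responder replicate 14 (1.003) or responder replicate 16 (1.22) was left out. The log2 fold change against IgG controls (1.07, SE 0.19, adjusted p = 4.65e-04) passed both, and was 0.63 (adjusted p = 0.147) without responder replicate 15. Ackr3, the scavenger of CXCL12, had 42.6 and 25.9 CPM in responders within or near the non-responder range of 17.5 to 33.7 CPM, around a median of 25.1 CPM. IgG controls were at 12.5, 26.4 and 30.7 CPM. Its log2 fold change was 0.44 (95% interval -0.20 to 1.08).

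Cxcl16, a surface chemokine of macrophages and other antigen-presenting cells, was abundant and even. IgG controls had 84.8, 101 and 119 CPM (lowest, median and highest), non-responders 107, 124 and 140.1 CPM and responders 96.4 and 118 CPM. Between responders and non-responders the log2 fold change was -0.20 (95% interval -0.51 to 0.11). Its receptor Cxcr6, carried by resident and effector T cells, was at 0.622, 1.305 and 4.29 CPM in IgG controls, 1.62, 2.54 and 3.63 CPM in non-responders and 7.07 and 9.39 CPM in responders. Both responders were above all other tumors, with a log2 fold change of 1.70 (SE 0.48, adjusted p = 0.0198). Without replicates 1, 9 and 14 it was 1.41 (adjusted p = 0.0586), and leaving out responder replicate 15 or 16 gave adjusted p of 0.113 or 0.147. Cxcr6 lies within Fyco1, which is on the opposite strand. Cxcl17, a mucosal chemokine, had at most 7 counts in a tumor.

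For the fractalkine pair the ligand rose and the receptor fell. Cx3cl1 was at 0.366, 0.592 and 1.25 CPM in IgG controls (lowest, median and highest), 0.474, 0.863 and 1.09 CPM in non-responders and 3.52 and 1.72 CPM in responders, with no overlap. The difference was 1.66 on the log2 scale (SE 0.44, adjusted p = 0.0120), and 0.99 (adjusted p = 0.438) without responder replicate 15. Cx3cr1, the 1 gene of the 34 tested that was called lower, had 61.2, 76.1 and 121 CPM in IgG controls, 58.3, 61.7 and 139 CPM in non-responders, and 44.8 and 17.0 CPM in responders. Both responders were below all other tumors, with a log2 fold change of -1.37 (SE 0.39, adjusted p = 0.0207), a 2.59-fold lower level. Replicates 1, 9 and 14, those with the largest mitochondrial share, were the 3 tumors with the highest Cx3cr1, at 121, 139 and 100.2 CPM, and without them the log2 fold change was -1.02 (adjusted p = 0.0144). Without responder replicate 16 it was -0.89 (adjusted p = 0.215). The annotated span of Cx3cr1 overlaps Xirp1, Gorasp1 and Csrnp1 on the same strand. Xcl1, which attracts cross-presenting dendritic cells, had 1.69 and 1.72 CPM in responders and 0.820 to 2.72 CPM in non-responders (95% interval of the log2 fold change -0.70 to 0.99).

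The upstream window of Cx3cr1 is shown because the gene went against the rest. It lies before a RefSeq start, inside the annotated span of the gene as counted, chr9:119901616-120069879.

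Cx3cr1, chr9:120068297-120068546, minus strand: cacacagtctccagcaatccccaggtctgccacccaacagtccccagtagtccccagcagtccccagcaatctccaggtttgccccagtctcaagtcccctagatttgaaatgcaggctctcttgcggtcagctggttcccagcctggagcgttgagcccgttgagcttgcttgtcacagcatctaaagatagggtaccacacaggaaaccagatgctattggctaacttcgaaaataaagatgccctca

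None of the 5 motifs matched in it, which says only that these letters are not in this window.

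**Figure D2:**
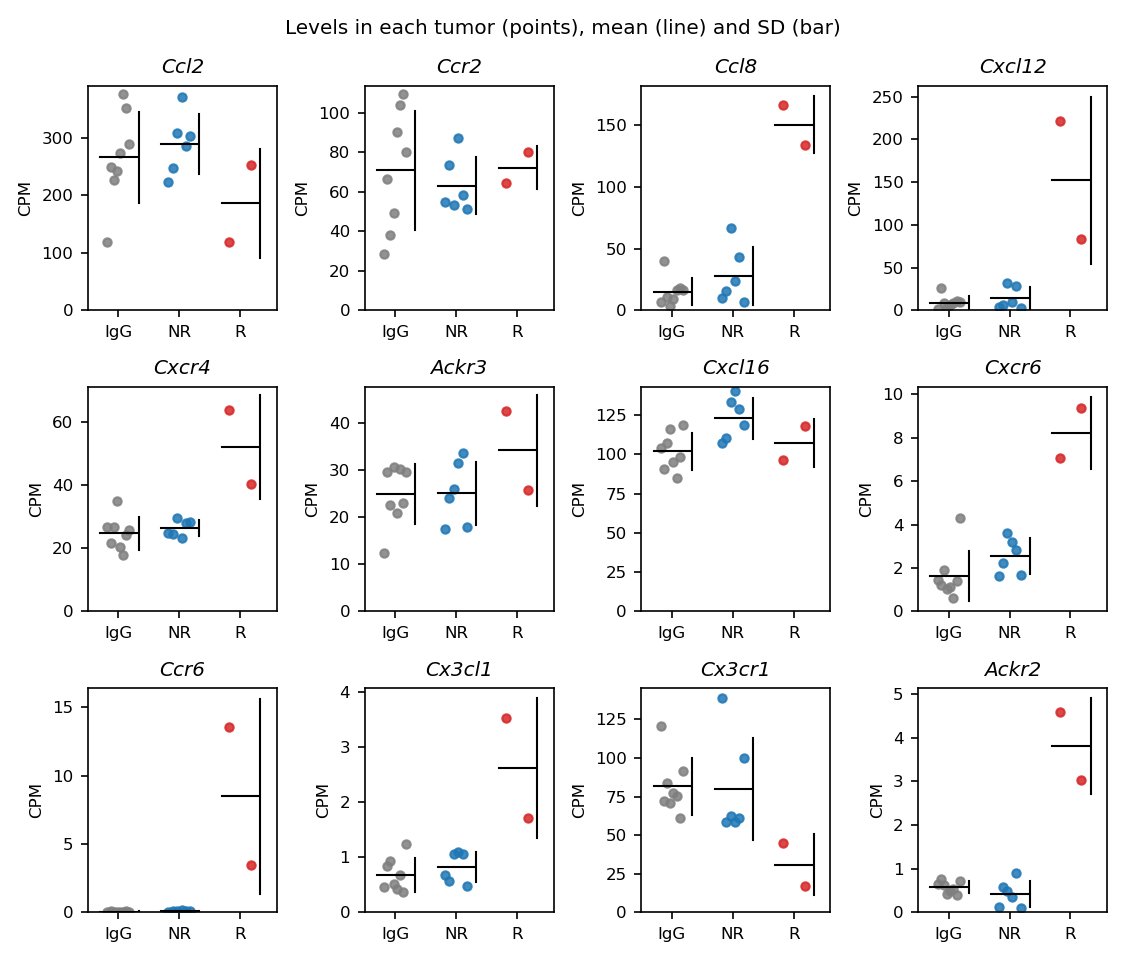
Levels in CPM (y axes, from 0) of 12 genes in IgG control (gray), non-responder (blue, NR) and responder (red, R) tumors, with 1 point per tumor, a line at the mean and a bar of 1 SD to each side, stopped at 0. Ccl8, Cxcl12, Cxcr4, Cxcr6, Ccr6, Cx3cl1 and Ackr2 are higher in both responders than in any other tumor, Cx3cr1 is lower in both, and Ccl2, Ccr2, Ackr3 and Cxcl16 overlap.

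Among the CC receptors, Ccr6, Ccr4 and Ccr9 were low outside the responders. Ccr6, a receptor of B cells, Th17 cells and some dendritic cells, had 0 to 4 counts in IgG controls and 2 to 6 in non-responders, against 458 and 123 counts in the responders. In CPM the medians were 0.0446 and 0.0970, with highest values of 0.109 and 0.152, and the responders had 13.5 and 3.46 CPM. The log2 fold change of 6.36 (SE 0.51, adjusted p = 2.24e-07) was the largest of the 34 genes, and 5.00 without responder replicate 15. Ccr6 had at least 10 counts in the responders alone, so its call carries no weight. The summed B cell markers were likewise higher in replicate 15 than in replicate 16. So were those of adipocytes, blood endothelium, lymph node stroma and HEV, mast cells and epithelium, among others. The part of these cells was not tested.

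Ccr6, chr17:8235793-8236042, plus strand: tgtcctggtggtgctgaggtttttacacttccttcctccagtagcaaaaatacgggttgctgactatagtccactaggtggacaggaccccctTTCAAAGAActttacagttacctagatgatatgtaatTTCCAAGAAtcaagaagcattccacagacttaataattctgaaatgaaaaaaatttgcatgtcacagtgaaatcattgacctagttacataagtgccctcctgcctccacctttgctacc

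This upstream window is shown as that of the receptor with the largest difference. It held 2 GAS matches, at -157 to -149 and -120 to -112, and a second start of Ccr6 had 2 overlapping kappaB matches from -81 to -71. A GAS match was found in 7.02% of all windows.

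Ccr4, on regulatory and Th2 cells, had 70 counts in each responder, or 2.07 and 1.97 CPM, and at most 5 counts in any other tumor. IgG controls were at 0, 0.0559 and 0.143 CPM and non-responders at 0.0305, 0.0853 and 0.144 CPM. From non-responders to responders the log2 fold change was 4.49 (SE 0.63, adjusted p = 7.08e-05). As with Ccr6, the call of Ccr4 carries no weight. Ccr9, the gut-homing receptor, was at 0.120, 0.319 and 0.520 CPM in IgG controls, 0.308, 0.453 and 0.633 CPM in non-responders, and 7.42 and 7.28 CPM in responders. The 2 responders were close to each other and the log2 fold change was 3.97 (SE 0.36, adjusted p = 8.59e-07). The span of Ccr9 takes in Lztfl1 on the opposite strand. Its ligand gene Ccl25, given above, was not called.

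Ccr2, the monocyte receptor of CCL2, was at 28.6, 73.6 and 109.6 CPM in IgG controls (lowest, median and highest), 51.3, 56.6 and 87.6 CPM in non-responders and 64.7 and 80.1 CPM in responders. The responders sat inside both ranges, with a log2 fold change of 0.20 (95% interval -0.63 to 1.02). Ccr1, on monocytes and neutrophils, was at -0.30 (-0.94 to 0.33), and Ccr10, a receptor of skin-homing T cells and plasma cells, at -0.049 (-0.48 to 0.38), with 2.46 to 3.79 CPM over all tumors. Cxcr1, an IL-8 receptor, had 0 to 11 counts per tumor. Within chr9:123678439-124113557 the order among the 37 genes is Ccr9, Cxcr6, Ccr1, Ccr3 and Ccr2, and the first 2 were called. Xcr1, a chemokine receptor gene outside the 37 that was called higher, lies between Cxcr6 and Ccr1. The plot of genes in map order sets called and uncalled genes of the 37 side by side.

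**Figure D3:**
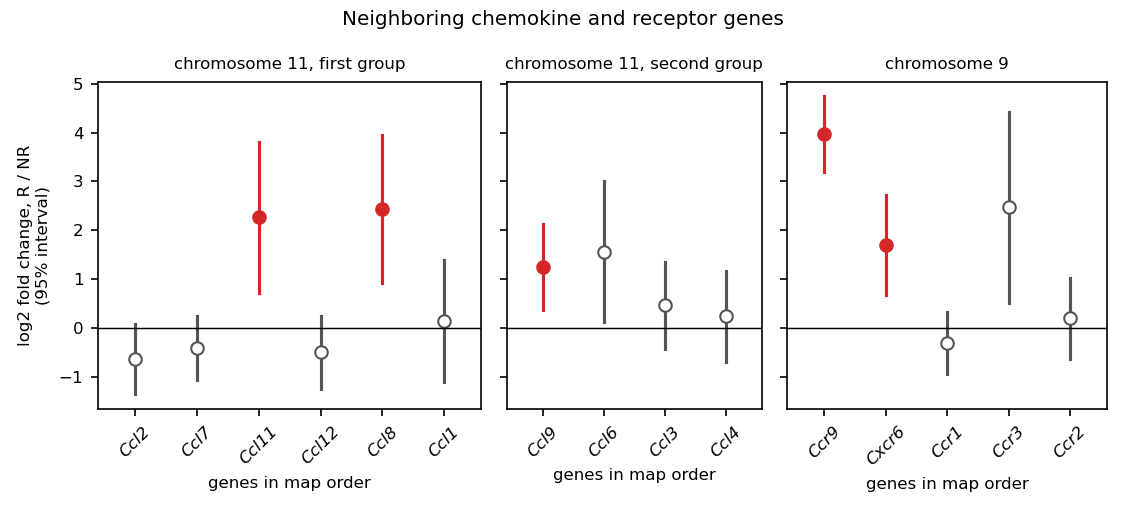
Log2 fold change of responders over non-responders (y axis) with 95% intervals for genes in map order along 2 stretches of chromosome 11 and 1 of chromosome 9, filled red where called higher and open where not called. Ccl11 and Ccl8 stand above their neighbors Ccl2, Ccl7, Ccl12 and Ccl1, and Ccr9 and Cxcr6 above Ccr1 and Ccr2. Ccr3, between Ccr1 and Ccr2, is open and lies above Cxcr6. Xcr1, which lies between Cxcr6 and Ccr1, is not drawn.

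Of the 5 atypical receptors 3 were called higher (Ackr1, Ackr2 and Ackr4), beside 12.5% of all genes tested. The calls of Ackr1 and Ackr4 carry no weight, for the reasons given below. Ackr1, the chemokine-carrying receptor of venules and red blood cells, was at 0, 0.337 and 1.12 CPM in IgG controls (lowest, median and highest), 0.0339, 0.381 and 1.09 CPM in non-responders and 8.75 and 2.33 CPM in responders. On the log2 scale it differed by 3.64 (SE 0.97, adjusted p = 0.0130), and by 2.33 (adjusted p = 0.396) without responder replicate 15. Ackr1 overlaps Cadm3 on the same strand. Ackr2, the lymphatic scavenger of inflammatory CC chemokines, was at 0.394, 0.590 and 0.766 CPM in IgG controls, 0.102, 0.422 and 0.899 CPM in non-responders and 4.58 and 3.04 CPM in responders, a log2 fold change of 3.15 (SE 0.51, adjusted p = 2.52e-04). Ackr4, the scavenger of CCL19, CCL21 and CCL25, had 92 and 28 counts in the responders, 2 to 12 in IgG controls and 0 to 6 in non-responders. Its levels were 2.72 and 0.787 CPM in responders against at most 0.315 CPM elsewhere, and the log2 fold change was 4.57 (SE 0.71, adjusted p = 1.78e-04). With at least 10 counts in fewer than 8 tumors, Ackr4 has a call that carries no weight. Ackr4 overlaps Acad11 on the opposite strand. For all 3 the responders were above every other tumor, and replicate 15 above replicate 16. Summed markers of blood endothelium and of lymph node stroma and HEV were also higher in replicate 15 than in replicate 16. So were those of T, B, plasma, dendritic and mast cells, adipocytes, fibroblasts and epithelium. Those of macrophages and monocytes, neutrophils and NK cells were lower. The part of these cells was not tested. Ccrl2, which holds chemerin on the cell surface, was at 5.85 and 11.7 CPM in responders and 4.94 to 10.7 CPM in non-responders, with a log2 fold change of 0.050 (95% interval -0.70 to 0.80).

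**Figure D4:**
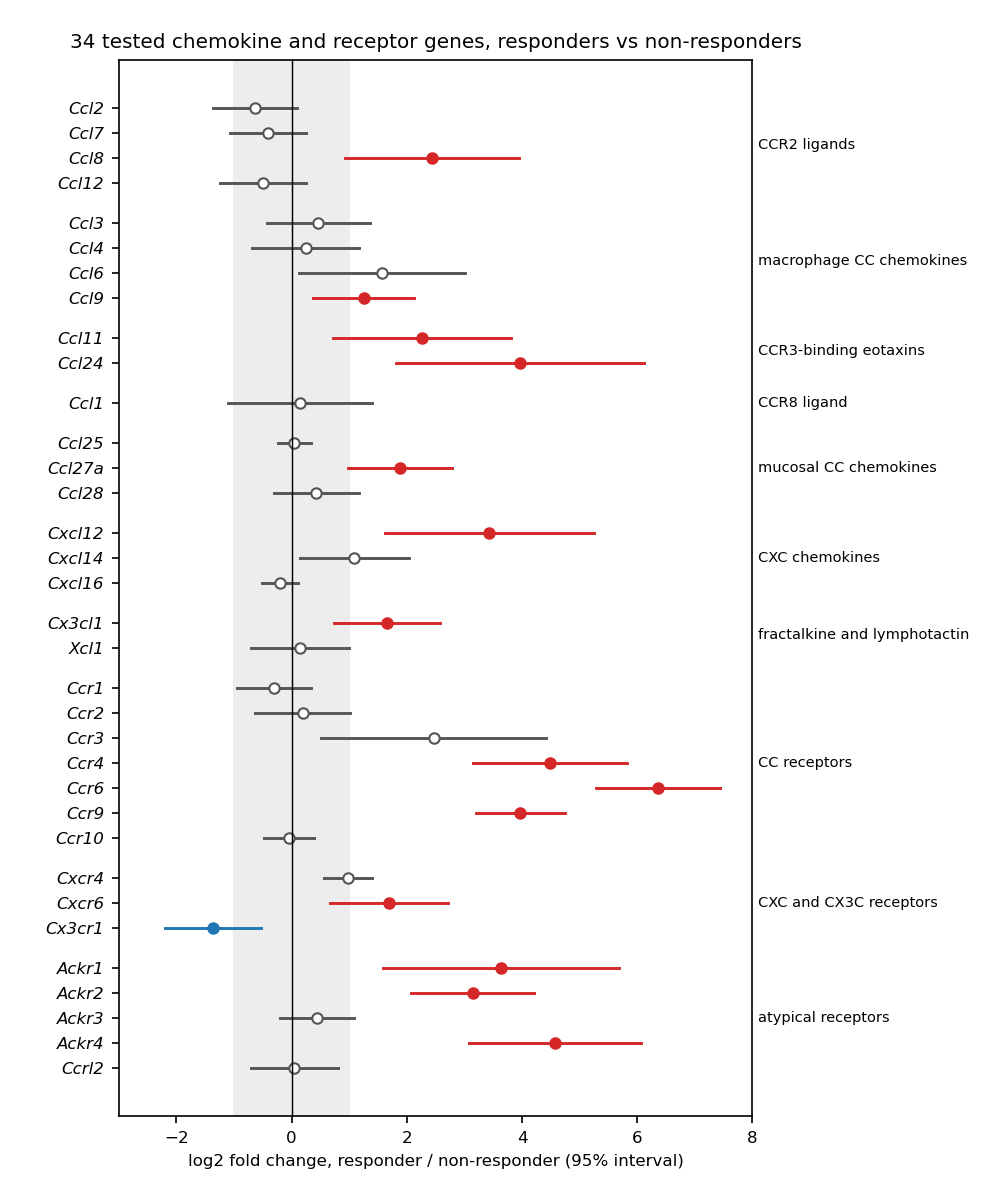
Log2 fold change of the 34 tested genes between 2 responder and 6 non-responder tumors (x axis) with 95% intervals from the edgeR fit, by role, filled red where called higher, filled blue where called lower, open where not called, with the band from -1 to 1 in gray. The 3 CC receptors Ccr4, Ccr6 and Ccr9 lie between 3.97 and 6.36, and Cx3cr1 is the sole gene called to the left. Ccl24, Ccr4, Ccr6 and Ackr4 had at least 10 counts in fewer than 8 tumors, so their calls carry no weight.

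Over the 34 genes the median log2 fold change of responders over non-responders was 1.03, beside 0.019 over all genes tested. Among genes with at least 10 counts in at least 8 tumors the median of 29 was 0.47. Ccr9 and Ackr2 were called in all 23 fits made. Without responder replicate 15 the median of the chemokine genes was 0.54, beside -0.0545 over all genes tested. Without replicate 16 it was 1.27, beside -0.048. Both fits assume that the lone responder varied like the other groups. In the former, Ccr9 and Ackr2 kept their calls as higher. So did Ccl24, Ccr4, Ccr6 and Ackr4, whose calls carry no weight. In the fit without replicate 16 Ccl2 was called lower and Cx3cr1 was not. Cxcl14 and Cxcr4, not called over all tumors, were called there, while Ccl8, Ccl9, Ccl11, Ccl24 and Cxcr6 lost their calls. Leaving out replicates 1, 9 and 14 gave 10 genes called higher and 1 lower of 34 tested, beside 2278 and 167 of all 17822 genes tested.

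Against IgG controls, 18 of the 34 genes were called higher and 1 lower in responders, beside 14.3% and 0.641% of all genes tested. They comprised the 15 genes called against non-responders with Ccl6, Cxcl14, Ccr3 and Cxcr4. Ccl24, Ccr3, Ccr4, Ccr6 and Ackr4 are among them, and their calls carry no weight. Among genes with at least 10 counts in at least 8 tumors, 13 of 29 were called higher and 1 lower. Of the 15901 genes tested there, 11.2% were called higher and 0.591% lower. The responders are the same 2 tumors in both comparisons. Cx3cr1 was lower by a log2 fold change of -1.40 (SE 0.39, adjusted p = 0.0139), which was -0.92 without responder replicate 16. Ccr6 was higher by 7.27 (SE 0.48, adjusted p = 1.43e-08), a call that likewise carries no weight. Ccl2 (-0.51, 95% interval -1.21 to 0.19) and Ccr2 (0.029, -0.78 to 0.83) were not called.

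Between non-responders and IgG controls 0 of 34 genes were called by edgeR and 0 by DESeq2, as were 0% of all genes tested by edgeR. At an unadjusted p below 0.05 there were 3 genes, beside 3.8% of all genes tested: Cxcl16 at a log2 fold change of 0.27 (SE 0.09), Xcl1 at 0.73 (SE 0.27) and Ackr4 at -1.32 (SE 0.59). The smallest adjusted p over the 34 genes was 0.987. For Ccl2 and Ccr2 the 95% intervals were -0.34 to 0.58 and -0.72 to 0.39, both within a 2-fold change (log2 of 1) in size. Between all 8 aPD-1 tumors and the 8 IgG controls, 0 of 29 genes tested were called by edgeR and 0 by DESeq2, beside 0% of 15775 genes by edgeR. At an unadjusted p below 0.05 there were 11, beside 11.4% of all genes tested there, led by Ccr9 at 2.76 (SE 0.76, adjusted p = 0.223). Xcl1 was at 0.78 (SE 0.25), Ccl8 at 1.95 (SE 0.64), Cxcr6 at 1.29 (SE 0.43) and Cxcl12 at 2.43 (SE 0.85). The pooled group holds the responders, with Ccr9 at 7.42 and 7.28 CPM. In non-responders Ccr9 was at 0.308 to 0.633 CPM, and in IgG controls at 0.120 to 0.520 CPM. Medians of non-responders and IgG controls were 8.26 and 8.37 CPM for Cxcl12, 20.0 and 13.7 for Ccl8 and 2.54 and 1.305 for Cxcr6.

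Across the 14 IgG control and non-responder tumors, 6 of the 34 genes shared the same 3 highest tumors, IgG control replicate 2 and non-responder replicates 11 and 13. These were Ccl8, Ccl6, Ccl9, Ccl11, Cxcl12 and Cxcl14, and over all genes tested 1.78% had the same 3 tumors on top. The tumors were picked after their values were seen. Cxcl12 was at 26.6, 32.5 and 29.1 CPM in them and at most 10.8 CPM in the other 11, and Ccl6 at 109, 128 and 147 CPM against at most 59.6 CPM. The 3 tumors lie in both treatment groups. Summed markers of blood endothelium were also highest in these 3 of the 14 tumors, at 181, 170.4 and 154.5 CPM, with IgG control replicate 8 at 149.3 CPM. Of the single markers, only Cdh5 and Vwf had these 3 tumors on top. In CPM, Pecam1, Kdr and Tek were higher in replicate 8 than in replicate 13. Egfl7 was higher in replicate 9 than in replicates 2 and 13. Those of mast cells were at 53.2, 48.0 and 42.4 CPM, barely above the 42.2 CPM of non-responder replicate 12. Cma1, Mcpt4, Tpsb2 and Fcer1a had more counts in replicate 12 than in replicate 13, Kit and Cpa3 fewer. The part of these cells was not tested.

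Of 24 other chemokine and receptor genes, chiefly those of T cells, B cells and neutrophils, 11 were called higher and 0 lower in responders than in non-responders, beside 12.5% and 0.663% of all genes tested. Of the 19 with at least 10 counts in at least 8 tumors 8 were called higher, beside 9.53%. Between aPD-1 and IgG 18 of the 24 could be tested and 0 were called. The 6 with the largest log2 fold changes were Cxcl15 (8.45), Ccl19 (7.27), Cxcr5 (7.09), Ccl21a (6.70), Cxcl13 (5.53) and Cxcr2 (5.15). Of these, Cxcl15, Ccl19 and Cxcr2 held at most 13 counts in any other tumor, so their calls carry no weight, Cxcl15 with 165 and 36 counts against at most 6. Ccl19, Ccl21a, Cxcl13 and Cxcr5 direct T and B cells within lymphoid tissue, and Ccl19 and Ccl21a have near-identical copies, which makes their counts uncertain. The interferon-induced ligands of CXCR3 were not called: Cxcl9 was at 0.0027 (SE 0.32), Cxcl10 at -0.014 (SE 0.29) and Cxcl11 at -0.25 (SE 0.44). Of 20 genes that act below chemokine receptors or trim chemokines, 8 were called higher and 0 lower, beside the same 12.5% and 0.663%, with the largest for Dpp4 (3.50), Rac2 (2.10), Dock2 (1.97), Elmo1 (1.57), Plcb2 (1.43) and Pik3cg (1.15). Without responder replicate 15, Elmo1, Plcb2 and Pik3cg were at 0.98, 0.997 and 0.90 and no longer called. The G protein genes Gnai2, Gnai3 and Gnb1 and the arrestin Arrb2 were not called. Rac2 and Dock2 act in blood cells and drive their movement, and Dpp4 is a T cell surface protease that trims CXCL12 and other chemokines.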

How the data were processed

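RNA-seq of 16 tumors, each from another mouse, was used. The authors aligned reads with STAR 2.6 (GRCm38) and deposited RSEM 1.3.0 expected counts per gene (Ensembl), of which 7.84% were not whole. The library kit was directional, and the strand setting of the counting is not given in the sources used here. Counts were rounded, 92 spike-in entries (at most 185 counts in a tumor) were left out, and edgeR 4.0.16 (R 4.3.3) was run on all genes with TMM scaling, filterByExpr and a robust quasi-likelihood fit of the 3 groups, and of the 2 treatments for aPD-1 against IgG, with Benjamini-Hochberg adjustment. RPKM used exon lengths of the annotation. The chi-square per degree of freedom was at least 16.5 in all 120 pairs of tumors, so none was a repeat deposit. DESeq2 1.42.0, other scaling and filters, and fits without single tumors were alternatives. The genes, gene lists and markers were chosen with earlier results of these data known. All 37 genes are named, and of the other lists the 6 called genes with the largest change, and a few uncalled ones chosen after their values were seen. 1 marker of classical monocytes is not reported here. Figures were drawn in Python 3.11.15.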

Additional observations from a re-analysis of the deposited data

Results flagged for a closer look

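Dixon's test on log2 CPM was applied to the IgG control and non-responder groups of each tested gene, and 6 of 68 groups held a tumor set apart from the others, where chance gives about 1 in 20 groups (5%). In IgG control replicate 1, the library with the largest mitochondrial share, Ccl2 was the lowest of its group at 119 CPM (others 227 to 376 CPM) and Ackr3 the lowest at 12.5 CPM (others 21.0 to 30.7 CPM). In non-responder replicate 14, also of a high mitochondrial share, Ccl12 was the highest at 33.6 CPM (others 12.9 to 17.6 CPM) and Ccl3 the highest at 4.57 CPM (others 2.28 to 2.87 CPM). Ccl1 was the lowest in non-responder replicate 10, at 0.182 CPM (others 0.380 to 0.547 CPM). Xcl1 was the highest in IgG control replicate 8, at 1.47 CPM (others 0.684 to 0.946 CPM). None of these 6 genes was called in the comparisons over all tumors, and Ccl2 was called lower in responders than in non-responders without responder replicate 16.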

How the results depend on the processing

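No paired analysis was possible because the groups share no replicate numbers. Over the alternatives, 1853 of 1960 single gene values kept their direction and side of the threshold. DESeq2 called 4 genes in all between non-responders and IgG controls and 59 between aPD-1 and IgG, where edgeR called 0. Without replicates 1, 9 and 14 together 1 gene was called between non-responders and IgG controls, Pik3cg fell under the fold threshold (0.93), Ccr2 against IgG controls was at -0.14, Ccr10 there at -0.034 and Ccrl2 against non-responders at -0.069. With no filter on low counts Ccr2 against IgG controls was at -0.010, and Ccl8, Ccl9 and Ccl11 against non-responders had adjusted p of 0.0658, 0.0926 and 0.0865 and Cxcl14 against IgG controls 0.0817. With at least 10 counts in at least 8 tumors the median log2 fold change was 0.47 and Cxcr4 was called (1.00). In a fit of only the 2 groups compared, added after the data were seen for single genes and medians, Ccl9 and Cx3cr1 had adjusted p of 0.0698 and 0.0666.

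Leaving out 1 tumor at a time, with a lone responder assumed to vary like the other groups, gave 923 to 2601 genes and 7 to 17 of the chemokine genes called between responders and non-responders, with a median of 0.54 to 1.27. Against IgG controls it gave 1243 to 2949 genes and 9 to 19 chemokine genes. Between non-responders and IgG controls 0 to 2 genes were called, and between aPD-1 and IgG 0 to 4. The lowest counts of chemokine genes came without responder replicate 15. Among log2 fold changes of responders over non-responders that changed sign, Ccl3 ranged from -0.59 to 0.98, Ccl4 from -0.28 to 0.53, Ccl1 from -0.074 to 0.23, Ccl25 from -0.084 to 0.0995, Cxcl14 from -0.043 to 1.64, Xcl1 from -0.053 to 0.38, Ccr2 from -0.020 to 0.31, Ccr10 from -0.16 to 0.014, Ackr3 from -0.029 to 0.71 and Ccrl2 from -0.59 to 0.40. Against IgG controls Ccl3 ranged from -0.16 to 1.41, Cxcl16 from -0.14 to 0.14, Ccr1 from -0.54 to 0.23, Ccr2 from -0.19 to 0.15, Ccr10 from -0.060 to 0.092, Ackr3 from -0.021 to 0.72 and Ccrl2 from -0.28 to 0.70. Of these genes Cxcl14 alone was called in a comparison over all tumors. The cause of these changes was not tested.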
